A study of Mus musculus with 12 samples.

Results

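Matrix metalloproteinases (MMPs) and the tissue inhibitors that block them (TIMPs) were read in RNA sequencing of mouse joint cartilage cells with and without a *Runx3* deletion. The genes were chosen by name, as every symbol in the deposited Runx3 table among *Mmp2*, *Mmp3*, *Mmp9*, *Mmp13*, *Mmp14*, *Mmp16*, *Timp1*, *Timp2* and *Timp3*. They are 9 of 17536 genes, 6 proteases and 3 inhibitors.

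The study asks how Runx3 acts in articular cartilage and in osteoarthritis. R3-Cntl libraries come from *Runx3* fl/fl mice and R3-cKO libraries from *Col2a1-Cre; Runx3* fl/fl mice, in which Cre is made by *Col2a1*-expressing chondrocytes. All mice were 5 days old and of C57BL/6 strain by label (C57BL/6J in the methods), and each genotype gave 3 libraries of superficial zone (SFZ) cells and 3 of deeper zone (DZ) cells. SFZ cells were released first from the cartilage ends by trypsin and collagenase, and DZ cells by a further collagenase step on what remained. The methods describe plating on fibronectin and, for all experiments, culture in a monolayer.

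The enzymes divide the work of matrix turnover. *Mmp13* encodes the collagenase that opens the type II collagen triple helix, *Mmp2* and *Mmp9* the gelatinases that digest opened collagen, and *Mmp3* the stromelysin that cuts proteoglycan core protein and activates other proenzymes. *Mmp14* and *Mmp16* encode membrane-anchored proteases, and MMP14 with TIMP2 forms the cell-surface complex that activates proMMP2.

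Values are given as FPKM, fragment counts scaled to transcript length and library size, a unit inferred from the file because it is labelled only TMM. All 8 chondrocyte markers examined reached 1 FPKM in all 12 libraries, with *Col2a1* the most abundant. *Runx3* itself was not lower under the deletion label, at a log2 difference of −0.04 in SFZ and 0.13 in DZ cells. A gene-level value does not report the floxed exon alone, so groups are written below as libraries labelled R3-cKO. The p-values below measure spread between these libraries, as no label ties a library to a named animal. The supplement speaks of 3 littermates per genotype, so SFZ and DZ libraries may come from the same mice, while the zone tests over both genotypes treat all 12 as independent.

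By mean level the inhibitors lead. *Timp3* ranked 50 among 17536 genes, *Timp2* 134 and *Timp1* 276, followed by *Mmp14* at 438, *Mmp13* at 516 and *Mmp2* at 678. *Mmp16* ranked 7489, *Mmp3* 11303 and *Mmp9* 11839. *Timp3* alone made up 39.8% to 72.6% of summed inhibitor FPKM. It led in every library but R3-cKO SFZ 3, where *Timp2* made up 52.9%. Among proteases *Mmp13* held from 5.08% to 68.0% of the protease sum, *Mmp14* from 14.8% to 56.9% and *Mmp2* from 16.2% to 37.9%. The 9 genes together carried 0.269% to 0.730% of all FPKM in a library.

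**Figure D1:**
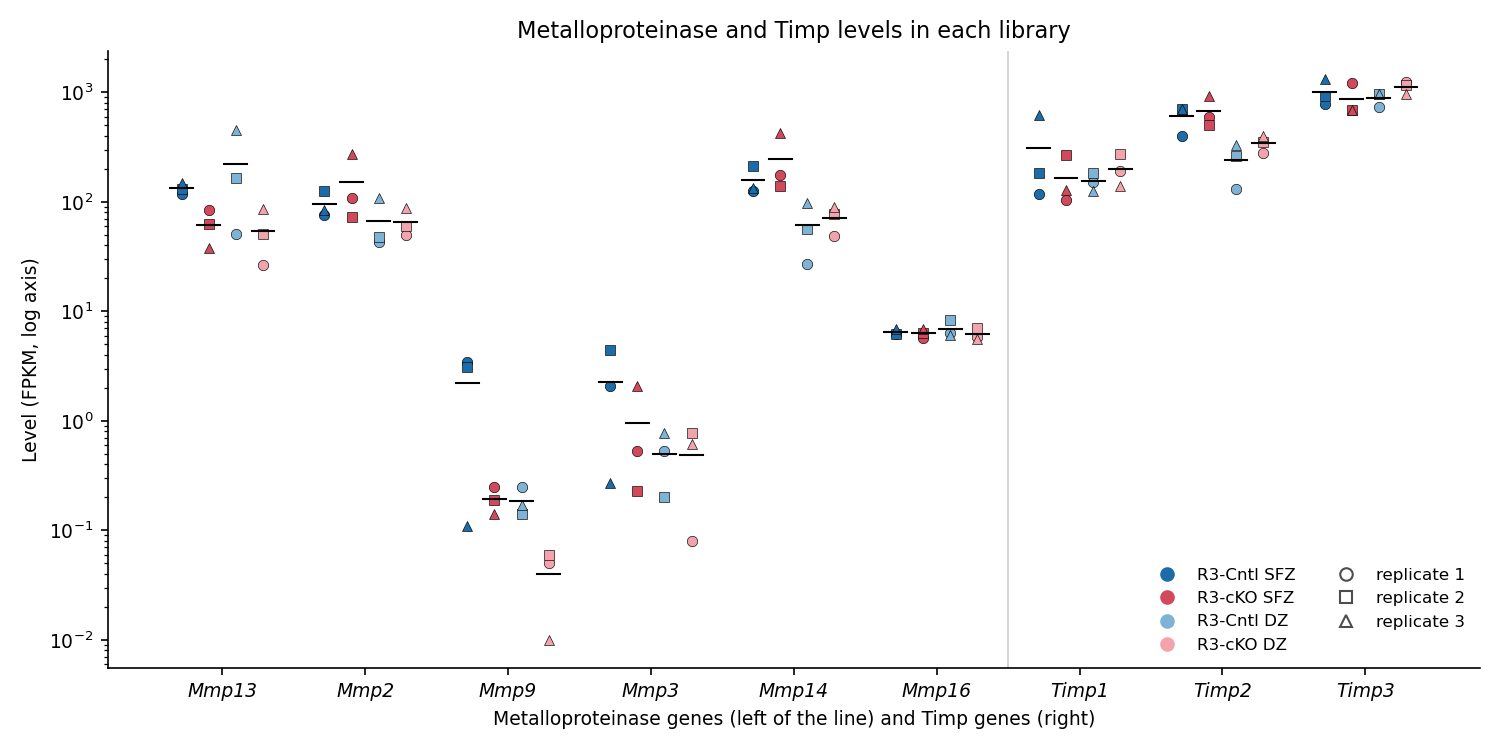
FPKM of each member in 12 libraries on a log axis, grouped by genotype and zone. The inhibitors and *Mmp2*, *Mmp13* and *Mmp14* lie well above *Mmp16*, and *Mmp3* and *Mmp9* stay below 5 FPKM.

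On mouse build mm9 (GENCODE vM1) *Mmp13* and *Mmp3* share a run of MMP genes on chromosome 9, with *Mmp13* at 9:7272514-7283333 and *Mmp3* at 9:7445822-7455972. Of the 10 genes in that run, 7 are in the deposited table, and only *Mmp13* reached 10 FPKM in any library. Just 3 reached 1 FPKM anywhere, namely *Mmp13*, *Mmp12* and *Mmp3*. *Timp1* (X:20447292-20451861) lies inside *Syn1* and *Timp3* (10:85763117-85812251) inside *Syn3*, each on the opposite strand. *BC100451*, absent from the table, lies inside *Timp2* on the same strand. With strandedness unstated, reads of overlapping genes could enter these counts, which was not tested. *Syn1* read 0.65 to 1.01 FPKM and *Syn3* 0.23 to 0.76.

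*Mmp13*, the type II collagenase, was lower in libraries labelled R3-cKO in both zones by group mean. The SFZ control libraries held 118, 130.1 and 149.7 FPKM and the SFZ libraries labelled R3-cKO 84.3, 62.2 and 37.9. In DZ cells the controls held 51.3, 165 and 454 FPKM and the R3-cKO libraries 26.3, 50.6 and 86.2. Every SFZ control library lies above every SFZ library labelled R3-cKO, whereas in DZ cells the groups overlap and the R3-Cntl values spread widely. Group means with standard deviations were 132 ± 16.2 and 61.5 ± 23.2 FPKM in SFZ cells, a ratio of 2.15, and 223 ± 208 and 54.4 ± 30.1 in DZ cells, a ratio of 4.11. The limma log2 difference in SFZ cells was −1.16 (95% interval −1.87 to −0.45), with an unadjusted p of 0.00698 and an adjusted p of 0.9997, and the exact two-sided permutation test gave p = 0.1, its smallest possible value for 3 against 3 libraries. Here 8 of 9 members passed the filter of at least 1 FPKM in 3 compared libraries, and *Mmp9* was not tested. None of the 8 passed an adjusted p of 0.05 in limma, and neither did any of 11537 genes (0.0%). At unadjusted p below 0.05 *Mmp13* was 1 of 13 lower genes, 0.113% of those tested, a count that ran from 4 to 793 as single libraries were left out. It was also the only tested member of 8 whose SFZ genotype groups did not overlap, against 2.4% of tested genes.

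In DZ cells the limma log2 difference for *Mmp13* was −1.67 (standard error 0.80, p = 0.0791, adjusted p 0.999), and permutation gave p = 0.2. Leaving out single libraries moved this difference between −2.47 and −0.91. Here 7 of 9 members were tested, *Mmp3* and *Mmp9* falling below the filter. By adjusted p 0 of 7 passed and 0.0% of 11091 genes did, and at unadjusted p 0 of 7 members were lower against 1.15% of genes. None of the 7 had separated DZ genotype groups, against 8.03% of genes. Matching DZ libraries by replicate number, *Mmp13* was higher in R3-Cntl in 3 of 3 pairs, by ratios of 1.95, 3.26 and 5.27. *Mmp16* also was, making 2 of 7 tested members lower in R3-cKO in all pairs, against 13.4% of genes. A limma fit for DZ cells that blocks on this number gave *Mmp13* the same difference with a standard error of 0.27, an unadjusted p of 0.00136 and an adjusted p of 0.147. That block called 1830 genes at unadjusted p, 16.5% of those tested and up from 404. Fewer *Mmp13*-expressing cells and less *Mmp13* RNA per cell cannot be told apart in bulk RNA.

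**Figure D2:**
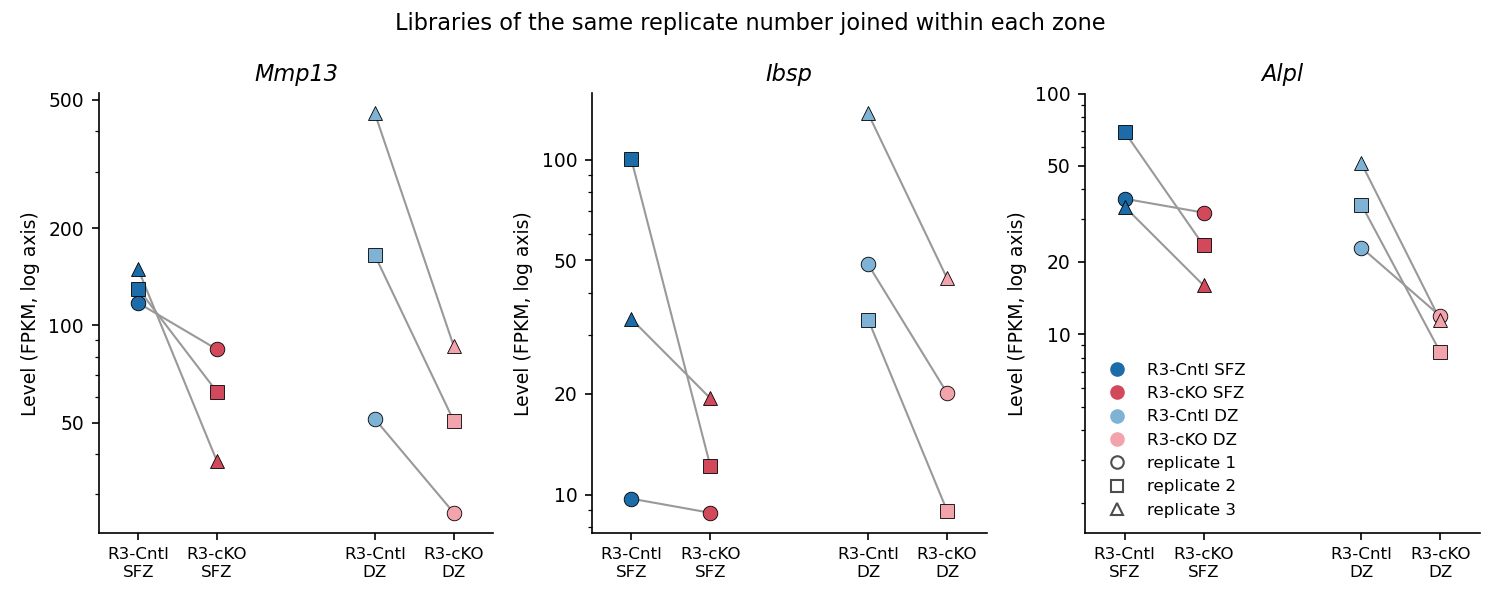
*Mmp13*, *Ibsp* and *Alpl* FPKM on log axes, a panel for each, with lines joining the R3-Cntl and R3-cKO library of a zone that share a replicate number. For *Mmp13* the SFZ groups do not overlap, so any matching of them slopes downward, and the DZ control values span its widest range.

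*Alpl* and *Ibsp*, mineralization genes picked for this comparison after their values were seen, were also higher in R3-Cntl in 3 of 3 DZ pairs, *Alpl* by ratios of 1.93, 4.10 and 4.50. Other genes of the same lists were mixed: *Sp7*, *Bglap* and *Mef2c* also were in 3 of 3, whereas *Spp1* and *Col1a1* were higher in R3-cKO in 2 of 3 DZ pairs, and *Col10a1* in 1 of 3. Across 12 libraries *Mmp13* tracked *Alpl* at r = 0.74, and at 0.83 within SFZ and 0.82 within DZ libraries. With *Ibsp* its r was 0.57, and with the hypertrophy collagen *Col10a1* it was −0.12, at 0.47 within SFZ and −0.61 within DZ libraries. The genes most like *Mmp13* across libraries were *Podnl1* (r = 0.83), *Enpp2* (0.80) and *Psd3* (0.78), descriptions only, as libraries share a zone and a genotype.

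The 250 bases before the *Mmp13* start hold a Runx and an AP-1 match, and *Mmp14* has a Runx match and 2 GC boxes. Windows are from GRCm38.p6 with RefSeq starts, written in the direction of the gene, and capitals mark motif matches. Both strands were searched for Runx (TGTGGT or TGCGGT), AP-1 (TGANTCA) and the GC box (GGGCGG). The windows shown are chr9:7272264-7272513 for *Mmp13*, chr9:7445572-7445821 for *Mmp3* and chr14:54431348-54431597 for *Mmp14*.
Mmp13: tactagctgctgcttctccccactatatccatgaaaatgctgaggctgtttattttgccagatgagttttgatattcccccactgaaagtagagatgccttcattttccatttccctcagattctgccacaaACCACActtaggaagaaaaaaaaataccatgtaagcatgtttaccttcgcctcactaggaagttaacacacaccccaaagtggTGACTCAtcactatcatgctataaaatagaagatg
Mmp3: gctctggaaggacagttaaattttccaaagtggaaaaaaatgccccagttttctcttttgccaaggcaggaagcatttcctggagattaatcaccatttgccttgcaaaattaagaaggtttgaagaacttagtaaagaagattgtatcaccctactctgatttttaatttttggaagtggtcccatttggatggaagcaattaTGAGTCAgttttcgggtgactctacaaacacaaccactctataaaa
Mmp14: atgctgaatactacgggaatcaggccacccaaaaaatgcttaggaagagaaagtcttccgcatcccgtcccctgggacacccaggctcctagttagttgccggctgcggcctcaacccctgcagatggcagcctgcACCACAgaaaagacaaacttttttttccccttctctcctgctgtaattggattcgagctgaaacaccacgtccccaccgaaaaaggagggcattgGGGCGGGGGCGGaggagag
*Mmp13* and *Mmp14* each carry ACCACA, the reverse complement of TGTGGT, and *Mmp13* and *Mmp3* each carry an AP-1 match, TGACTCA or TGAGTCA. *Timp1*, *Timp2* and *Timp3* each have a GC box and neither of the other motifs, as searched, in their windows. The paper's motif from Runx3 binding, TG(T/C)GG(T/C), also allows a final C. That wider form was not searched, and the *Timp1* window holds GCCACA, the reverse complement of TGTGGC. Among 32851 windows genome-wide, 18.6% hold the Runx letters, 6.75% the AP-1 letters and 32.7% the GC box. A match is a description, not a site, and *Mmp2*, *Mmp9* and *Mmp16* had no window in the reference.

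The gelatinases differed sharply in level. *Mmp2* in SFZ cells read 76.2, 126 and 84.0 FPKM in R3-Cntl and 108, 72.4 and 275 in R3-cKO, and in DZ cells 43.0, 47.6 and 108 in R3-Cntl and 49.3, 60.8 and 87.3 in R3-cKO. The genotypes overlap in each zone, and the highest value belongs to R3-cKO SFZ library 3. The limma log2 genotype difference of *Mmp2* was 0.47 (adjusted p 0.9997) in SFZ and 0.08 (adjusted p 0.999) in DZ cells. Both signs reversed as single libraries were left out, with ranges of −0.076 to 0.88 in SFZ and −0.16 to 0.49 in DZ cells.

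*Mmp9* exceeded 1 FPKM in just 2 libraries, R3-Cntl SFZ 1 and 2, at 3.43 and 3.12. *Mmp12*, the macrophage elastase, was highest in the same 2 libraries, at 8.18 and 6.07 FPKM, and reached 3.33 in R3-cKO SFZ 1. Summed macrophage markers, led by *Lyz2*, were highest in the same 2 libraries, with 198, 167 and 7.15 FPKM in SFZ R3-Cntl and 166, 15.8 and 77.9 in SFZ R3-cKO. The neutrophil gene *S100a9* read 5.46 and 2.21 FPKM in these 2 *Mmp9* libraries and at most 0.97 in any other. *S100a8* and *Ngp* of the same list were also highest there, at 3.33 and 1.11 and at 2.98 and 1.22 FPKM. *Lcn2*, the most abundant of that list, did not follow. It read 32.5 and 21.3 FPKM there, and 25.1 and 23.4 in R3-Cntl DZ 1 and 2. Over 12 libraries *Mmp9* tracked *S100a9* at r = 0.93, *Mmp12* at 0.90 and *Lyz2* at 0.74. Within SFZ libraries these were 0.92, 0.88 and 0.66, and within DZ libraries 0.33, 0.87 and 0.62. In DZ cells every *Mmp9* value was at most 0.25 FPKM, at 0.25, 0.14 and 0.17 in R3-Cntl above 0.05, 0.06 and 0.01 in R3-cKO, levels near 0 that rest on few fragments (exact permutation p = 0.1). Of 8 osteoclast markers, 3 reached 1 FPKM in both libraries and also in R3-cKO SFZ 1, where *Mmp9* was 0.25 FPKM, and 2 did in every other library. Whether macrophages, neutrophils, osteoclasts or endothelial cells supply *Mmp9* was not tested.

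*Mmp3*, the stromelysin, was also sparse and uneven. SFZ controls read 2.10, 4.41 and 0.27 FPKM, and SFZ libraries labelled R3-cKO 0.53, 0.23 and 2.09. No DZ library reached 1 FPKM. Its log2 genotype difference in SFZ cells was −0.62 (limma adjusted p 0.9997), with a standard error of 0.60 nearly as large. Leaving out single libraries moved it between −1.19 and −0.35, and pseudocounts of 0.1 and 5 gave −1.004 and −0.26. Its closest matches over 12 libraries were *Kera* and *Sfrp1*, each at r = 0.88, and the muscle gene *Myl1* at 0.87. *Mmp3* peaks in R3-Cntl SFZ 2, where summed skeletal muscle markers read 82.7 FPKM against at most 19.5 elsewhere, and their part was not tested.

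*Mmp14*, the membrane-type activator of proMMP2, separated the zones. SFZ libraries held 126, 213 and 133 FPKM in R3-Cntl and 174, 140.3 and 424 in R3-cKO. DZ libraries held 27.2, 56.6 and 98.5 in R3-Cntl and 48.4, 77.1 and 90.1 in R3-cKO. The lowest SFZ library stands above the highest DZ library, and R3-cKO SFZ 3 is again the top of the range. Over both genotypes the means were 202 ± 114 FPKM in SFZ and 66.3 ± 27.1 in DZ cells, a ratio of 3.05. In limma *Mmp14* was lower in DZ cells by a log2 difference of −1.57 (95% interval −2.31 to −0.82, adjusted p 0.00920).

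*Timp2*, which bridges MMP14 to proMMP2, fell in the same direction. SFZ libraries held 401, 699 and 711 FPKM in R3-Cntl and 600.1, 507 and 919 in R3-cKO. DZ libraries held 130.3, 263 and 329.9 in R3-Cntl and 277, 351 and 396 in R3-cKO. Zones do not overlap here either, although the gap between the lowest SFZ and the highest DZ library is a few FPKM. Means were 640 ± 181 FPKM in SFZ and 291 ± 92.8 in DZ cells, and the limma log2 difference was −1.16 (95% interval −1.72 to −0.61, adjusted p 0.00928).

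Of 8 members tested for zone over both genotypes, *Mmp14* and *Timp2* passed an adjusted p of 0.05 in limma, 2 of 8 against 23.2% of 11765 genes, so the share is near the background and is no result about the family. The same 2 of 8 were the members without overlap between zones, against 11.3% of genes. The zone fits called 506 genes higher and 2219 lower in DZ cells, and the median log2 difference of all genes was −0.14. After quantile normalization the split was 1237 higher and 915 lower, and with median-of-ratios scaling 1053 and 1088. *Mmp14* then stood at −1.49 and −1.41 and *Timp2* at −1.12 and −0.999, and both kept an adjusted p below 0.05 in limma.

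*Mmp2* completes this activation trio, with a mean of 124 ± 76.8 FPKM in SFZ and 66.0 ± 26.0 in DZ cells. Its zones overlap, and its limma log2 difference of −0.81 had an adjusted p of 0.101. With the replicate block that adjusted p was 0.0438, and without R3-Cntl DZ library 3 it was 0.0408. The block pairs SFZ and DZ libraries by number, and same-number R3-Cntl libraries correlated at only 0.58, 0.11 and −0.15. It also called 33.7% of all tested genes. Leaving out R3-cKO SFZ library 3, the top library for the whole trio, gave log2 differences of −0.55 for *Mmp2*, −1.35 for *Mmp14* and −1.08 for *Timp2*.

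Within a single genotype the direction for *Mmp14* and *Timp2* was the same, but neither passed in unblocked fits of each genotype alone. In R3-Cntl limma gave −1.50 for *Mmp14* (adjusted p 0.110) and −1.37 for *Timp2* (adjusted p 0.0995), where 0 of 7 tested members passed against 1.24% of 11336 genes. In a limma model of all 12 libraries *Timp2* in R3-Cntl did pass, with an adjusted p of 0.0493. With the replicate block in R3-Cntl alone its limma adjusted p was 0.0272. Same-number libraries there correlated at 0.58, 0.11 and −0.15, so the pairing which that block assumes was not met. In R3-cKO alone unblocked limma gave −1.64 for *Mmp14* (adjusted p 0.214) and −0.95 for *Timp2* (adjusted p 0.216). Again 0 of 7 members passed, against 0.0176% of genes. The zones did not overlap for *Mmp14* and *Timp2* in either genotype, 2 of 7 tested members each time, against 32.4% of genes in R3-Cntl and 21.0% in R3-cKO. By replicate number in R3-cKO the SFZ to DZ ratio of *Mmp14* was 3.60, 1.82 and 4.71 and that of *Timp2* 2.17, 1.44 and 2.32. *Mmp2* was −0.61 in R3-Cntl and −1.001 in R3-cKO (limma adjusted p 0.315 and 0.433).

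**Figure D3:**
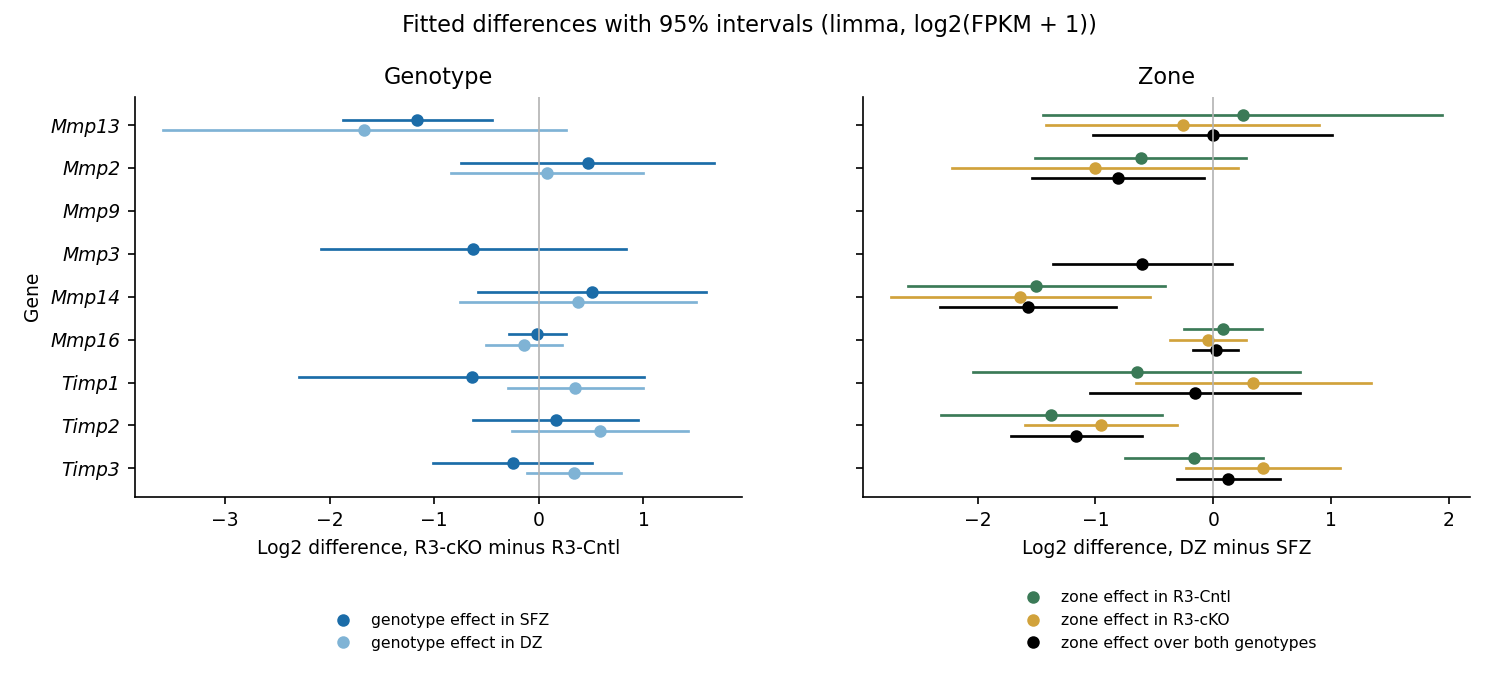
Fitted log2 differences with 95% intervals for each tested member, by comparison. *Mmp13* stands to the left in the genotype comparisons, and *Mmp14* and *Timp2* stand to the left of 0 in the zone comparisons.

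The trio varied together inside each zone too. Within SFZ libraries *Mmp2* and *Mmp14* correlated at r = 0.99 and *Mmp14* and *Timp2* at 0.79, and within DZ libraries at 0.86 and 0.94. *Mmp2* and *Timp2* correlated at 0.81 within SFZ and 0.69 within DZ libraries. *Col1a1*, the fibrous-tissue collagen, followed all 3, with r over 12 libraries of 0.94 for *Mmp14*, 0.91 for *Timp2* and 0.81 for *Mmp2*. In SFZ libraries *Col1a1* ran 1859, 3706 and 2112 FPKM in R3-Cntl and 1937, 1849 and 4793 in R3-cKO, and in DZ libraries 24.4, 242 and 961 in R3-Cntl and 52.8, 244 and 576 in R3-cKO. In DZ cells of both genotypes *Col1a1* and each trio gene increase from library 1 to library 3. All 8 fibroblast and tendon markers fell from SFZ to DZ cells at an adjusted p below 0.05 in limma, with a median log2 difference of −3.15. Of all tested genes 18.9% fell. All 8 markers passed the filter within SFZ libraries and 5 within DZ libraries. *Cd34*, *Tnmd* and *Dpt* entered through their SFZ levels, which tilts the count and the median toward falls. The methods remove ligament and tendon before digestion, and the part of fibroblast and tendon cells in the trio's zone difference was not tested. The closest single genes were *Gas1* for *Mmp14* (r = 0.99), *Nbl1* for *Timp2* (0.99) and *Bace1* for *Mmp2* (0.98).

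**Figure D4:**
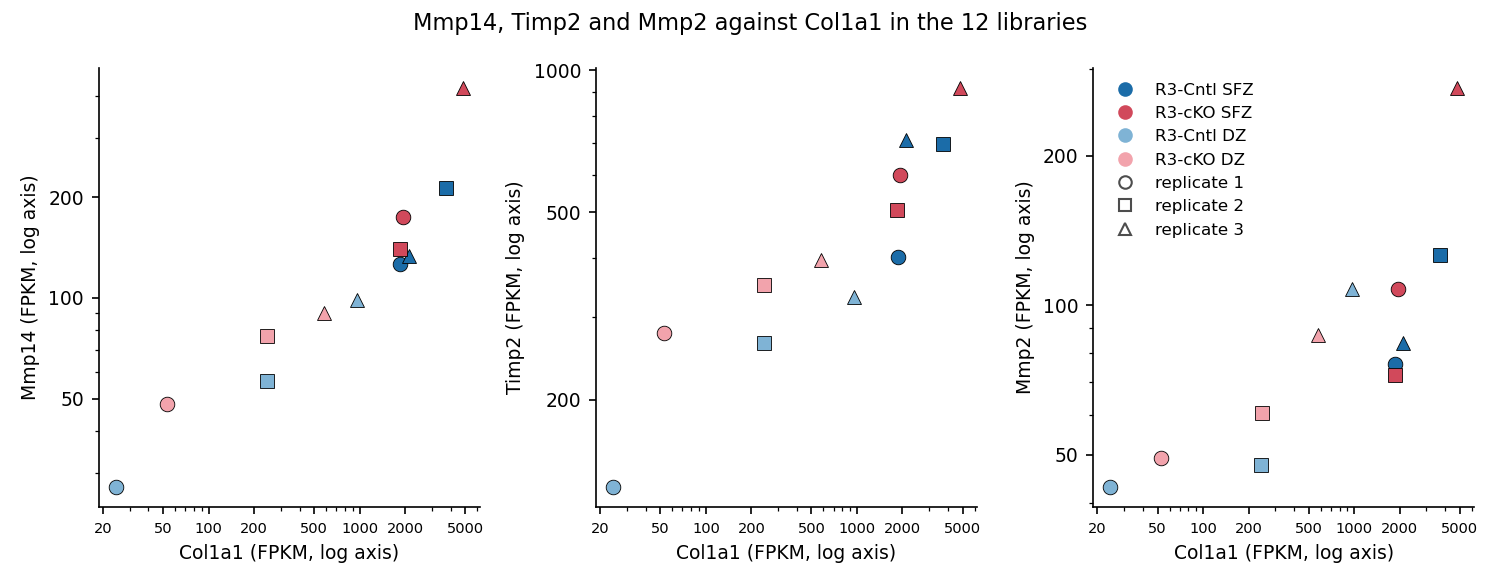
FPKM of *Mmp2*, *Mmp14* and *Timp2* against *Col1a1* FPKM in 12 libraries, log axes, coloured by genotype and zone. SFZ libraries lie at higher *Col1a1*, and the *Mmp2* values of the zones overlap.

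Of the ratios inside the trio, 1 of 3 separated the zones. *Mmp14* was 0.187 to 0.462 of *Timp2* in SFZ and 0.175 to 0.299 in DZ libraries, and *Mmp2* 0.118 to 0.299 and 0.173 to 0.330, both overlapping, so *Timp2* RNA exceeded both protease RNAs in every library. *Mmp2* was 0.516 to 0.647 of *Mmp14* in SFZ and 0.788 to 1.58 in DZ libraries.

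*Mmp16*, the other membrane-type enzyme, was the steadiest member, with all 12 values between 5.59 and 8.25 FPKM. Its limma log2 difference was −0.01 for genotype in SFZ cells, −0.14 in DZ cells and 0.02 for zone over both genotypes, none with an adjusted p below 0.8. Under quantile scaling the zone difference was 0.23 (limma adjusted p 0.0875), and in R3-Cntl alone 0.35 against 0.08 as fitted. It did not share the trio's course, and its most similar genes were *Ubxn2a* (r = 0.88), *Top1* (0.87) and *Ctr9* (0.82).

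Among the inhibitors *Timp3*, which binds to matrix and also blocks aggrecanases, was highest and differed little across zones when both genotypes were averaged. SFZ libraries held 783, 926 and 1329 FPKM in R3-Cntl and 1209, 685 and 690.5 in R3-cKO. DZ libraries held 734, 973 and 962 in R3-Cntl and 1237, 1161 and 958 in R3-cKO. Groups overlap in every comparison. Its zone difference over both genotypes was 0.13 (limma adjusted p 0.666), with means of 937 ± 274 and 1004 ± 177 FPKM. By genotype it was −0.16 in R3-Cntl and 0.42 in R3-cKO (limma adjusted p 0.684 and 0.541). By replicate number *Timp3* was higher in DZ cells in 3 of 3 R3-cKO pairs and 1 of 3 R3-Cntl pairs, though pairing was not met in R3-Cntl. The *Timp3* to *Timp2* ratio was 0.75 to 2.01 in SFZ and 2.42 to 5.63 in DZ libraries, without overlap.

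*Timp1*, the soluble inhibitor, varied widely between libraries. SFZ libraries held 117, 184 and 627 FPKM in R3-Cntl and 103, 269 and 127 in R3-cKO. DZ libraries held 151, 185 and 124 in R3-Cntl and 189, 271 and 141 in R3-cKO. The top value, R3-Cntl SFZ 3, stands far from the rest, and groups overlap throughout. The limma genotype difference was −0.64 in SFZ and 0.35 in DZ cells (adjusted p 0.9997 and 0.999), and the zone difference over both genotypes −0.15 (adjusted p 0.811).

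High *Timp1* went with *Fosl1*, an AP-1 subunit, and with *Plaur*, the urokinase receptor gene, 2 genes picked after the values were seen. *Fosl1* read 0.47, 3.96 and 17.3 FPKM in SFZ R3-Cntl and 1.26, 13.1 and 0.91 in SFZ R3-cKO. In DZ cells it read 0.16, 1.02 and 0.41 in R3-Cntl and 2.39, 5.47 and 0.11 in R3-cKO. *Timp1* is highest in R3-Cntl SFZ 3 and next in R3-cKO library 2 of either zone, the same 3 libraries that lead for *Fosl1*. Over 12 libraries *Timp1* correlated with *Fosl1* at r = 0.87 and with *Plaur* at 0.74. By the likeness ranking over all genes its closest were *Sbsn* (0.95), *Ube2z* (0.94) and *Ccne1* (0.94).

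In DZ cells all 3 inhibitors had positive genotype differences, 0.59 for *Timp2*, 0.35 for *Timp1* and 0.33 for *Timp3*, beside −1.67 for *Mmp13*. None passed, with a limma adjusted p of 0.999 each. By replicate number *Timp2* was higher in R3-cKO in 3 of 3 DZ pairs, by ratios of 2.13, 1.33 and 1.20, and *Timp1* in 3 of 3, by 1.25, 1.47 and 1.13. *Timp3* was higher in 2 of 3, and 2 of 7 tested members higher in all pairs compares with 26.6% of genes, so this is no result about the inhibitors. Leaving out single libraries moved *Timp2* between 0.20 and 0.86, *Timp1* between 0.11 and 0.58 and *Timp3* between 0.20 and 0.44. The blocked limma fit gave unadjusted p-values of 0.0192 for *Timp2* and 0.0156 for *Timp1*, within a comparison where the block also multiplied such calls genome-wide. *Mmp14* in DZ cells stood at 0.37, and in SFZ cells at 0.51, or 0.03 without R3-cKO SFZ library 3, while *Timp2* and *Timp3* in SFZ cells stood at 0.16 and −0.25. As single libraries were left out, the SFZ values ran from −0.11 to 0.35 for *Timp2* and −0.52 to −0.04 for *Timp3*. Cell-type markers differed in DZ cells too, without passing: 5 of 5 tested fibroblast and tendon markers were above 0 (median 0.44) and 7 of 8 chondrocyte markers below 0 (median −0.44), and their part was not tested.

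The difference of the genotype effect between zones was tested for 8 members, *Mmp9* again below the filter. By adjusted p 0 of 8 passed in limma, as did 0.0% of 11765 genes. The largest was 0.99 for *Timp1* (standard error 0.79, adjusted p 0.999), and without R3-Cntl SFZ library 3, the one at 627 FPKM, it was 0.29. *Timp3* followed at 0.58, *Mmp13* at −0.51, *Timp2* at 0.42 and *Mmp2* at −0.39, and *Mmp3*, at 0.60, rests on a few FPKM. *Mmp14* and *Mmp16* stood at −0.14 and −0.13, with 95% intervals of −1.71 to 1.44 and −0.53 to 0.27. Leaving out single libraries reversed the sign for *Mmp13* (−1.31 to 0.25), *Mmp2* (−0.80 to 0.15) and *Mmp14* (−0.61 to 0.34). It moved *Timp3* between 0.37 and 0.86 and *Timp2* between 0.034 and 0.70.

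Summed protease FPKM over summed inhibitor FPKM compares the classes as values, without a test. Inhibitor RNA exceeded protease RNA in all 12 libraries, by 2.12 to 13.1. Without *Timp3* it did so in all but R3-Cntl DZ 3, where the protease to inhibitor ratio was 1.47. In SFZ cells the protease to inhibitor ratio was 0.255, 0.267 and 0.140 in R3-Cntl and 0.195, 0.193 and 0.430 in R3-cKO. In DZ cells it was 0.127, 0.195 and 0.471 in R3-Cntl and 0.0762, 0.110 and 0.181 in R3-cKO. The R3-cKO DZ libraries hold the lowest ratio of all and lie below every R3-cKO SFZ library, whereas the R3-Cntl zones overlap. Group means were 0.221 ± 0.070 and 0.272 ± 0.136 in SFZ cells and 0.265 ± 0.182 and 0.122 ± 0.053 in DZ cells, R3-Cntl first. The DZ ratio was lower in R3-cKO in 3 of 3 same-number pairs, and the SFZ ratio in 2 of 3. Same-number SFZ libraries correlated at 0.79, −0.09 and −0.42, so pairing was not met for the SFZ count. The higher R3-cKO SFZ mean rests on library 3, at 0.430, as libraries 1 and 2 lie below the R3-Cntl SFZ mean.

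The R3-Cntl DZ mean rests largely on library 3, at 0.471 beside 0.127 and 0.195 in libraries 1 and 2. *Mmp13* carries most of the DZ genotype gap. Without it the DZ means were 0.102 in R3-Cntl and 0.088 in R3-cKO, and the SFZ means 0.148 and 0.236, the last from R3-cKO values of 0.1508, 0.1503 and 0.408. Without *Timp3*, the most abundant member, the 4 means were 0.489 and 0.535 in SFZ cells and 0.849 and 0.365 in DZ cells, the 0.849 from R3-Cntl values of 0.457, 0.620 and 1.47. FPKM sums count RNA and not enzyme, and secreted protein, zymogen activation and inhibitor binding were not measured.

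**Figure D5:**
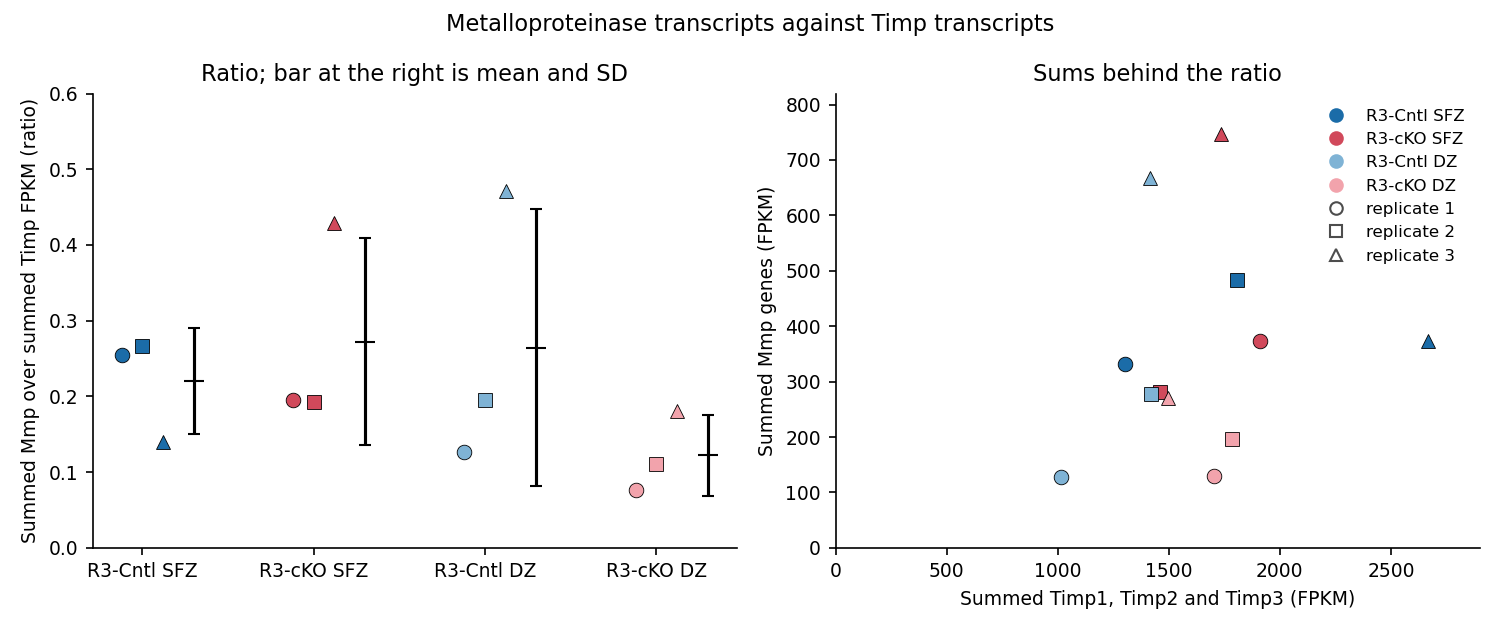
Left, summed protease over summed inhibitor FPKM in each library by genotype and zone, with group mean and standard deviation, and right, the 2 sums in FPKM on linear axes. The 2 lowest ratios belong to R3-cKO DZ libraries.

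The other genes of these systems place the members in their zone pattern. Of 12 tested metalloproteinases, 6 fell and 0 rose from SFZ to DZ cells at an adjusted p below 0.05 in limma, with a median of −0.77 beside −0.14 for all genes. Of all tested genes 18.9% fell, a share that shrinks under the other scalings, and no test compares the list with it. Besides *Mmp14* these were *Mmp23* at −1.68, *Mmp11* at −1.16, *Mmp19* at −0.89, *Mmp15* at −0.73 and *Mmp28* at −0.48. All 12 passed the filter within SFZ libraries and 8 within DZ libraries. *Mmp3*, *Mmp12*, *Mmp15* and *Mmp19* entered through their SFZ levels, so the filter tilts the count and the median toward falls. *Mmp23* ran 9.56, 29.6 and 20.2 FPKM in SFZ R3-Cntl and 0.90, 3.53 and 9.77 in DZ R3-Cntl. Of 5 tested inhibitors *Timp2* fell and *A2m*, at 1.81, rose, with a median of −0.15. In the activation and plasminogen list 3 of 12 fell and 0 rose (median −0.46), *Plau* at −1.65, *Plat* at −1.34 and *Ctsb* at −0.75, a share near that of all genes.

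The matrix list had calls in both directions. Of 13 genes 6 rose in DZ cells, among them *Col2a1* at 1.57, *Acan* at 2.11 and *Fn1* at 0.65, and 5 fell, among them *Col1a1* at −3.73, *Col3a1* at −2.34 and *Bgn* at −0.61, all at an adjusted p below 0.05 in limma and with a list median of 1.07. *Mmp13*, whose main substrate is the *Col2a1* product, did not follow it, with a zone difference of −0.00 (limma adjusted p 0.996). Of 4 clearance genes *Ddr1* rose and *Ddr2* fell, at 0.58 and −0.30 (median −0.24). Of 16 transcription factors tied to MMP genes *Ets1* rose at 0.73, *Runx2* fell at −0.44 and *Epas1* fell at −0.84 (median −0.23), 3 of 16 beside 23.2% of all genes called in either direction.

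For genotype, no gene of any of these lists passed an adjusted p of 0.05 in limma in either zone. In SFZ cells the metalloproteinase median was 0.07 and the inhibitor median −0.05, beside −0.01 for all genes. In DZ cells they were 0.17 and 0.33, beside 0.05. Osteoblast markers had medians of −0.88 (SFZ) and −1.32 (DZ) and hypertrophic markers −0.56 and −0.30, the side on which *Mmp13* lies, and their part was not tested. These lists share *Alpl* and *Ibsp*, so their medians are not independent. Of their other genes in SFZ cells, *Bglap* stood at −0.88, *Col10a1* at −0.75, *Spp1* at −0.37 and *Mef2c* at −0.14. *Ihh* stood at 0.03 and *Col1a1* at 0.08. *Sp7*, an osteoblast factor picked after values were seen, was at −0.74 in SFZ and −0.66 in DZ cells and did not pass in either.

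Sex and cell mixture differ between libraries that the members are compared across. Y-linked genes reached 1 FPKM in all but R3-cKO libraries 2 and 3 of each zone. Where detected their sum varied, from 12.1 to 52.4 FPKM, and in R3-Cntl library 3 it was 52.4 in SFZ and 17.0 in DZ cells. *Timp1* is X-linked, and its values in those R3-cKO libraries were 269 and 127 FPKM in SFZ and 271 and 141 in DZ cells. All but the 271 lie inside the range of the other libraries of their zone, and the part of sex was not tested. Chondrocyte markers rose from SFZ to DZ cells in 8 of 8 and macrophage markers fell in 9 of 9 tested (limma adjusted p below 0.05), while 0 of 6 hypertrophic markers passed. Within SFZ libraries 9 macrophage markers passed the filter and within DZ libraries 2, so the filter tilts their count toward falls. All 8 chondrocyte markers passed it in both zones. Superficial zone markers fell in 2 of 4 and osteoblast markers in 2 of 5, and 0 of 3 osteoclast, 0 of 1 neutrophil, 0 of 2 skeletal muscle and 0 of 4 Y-linked genes passed, with no endothelial gene tested. Of superficial zone markers 4 passed the filter within SFZ and 3 within DZ libraries, and of osteoclast markers 3 and 2. *Thbs4* and *Atp6v0d2* entered through their SFZ levels, so the filter tilts these counts toward falls as well. With the replicate block 1 of 6 hypertrophic (*Col10a1*, limma adjusted p 0.0224), 2 of 3 osteoclast and 3 of 4 superficial zone markers passed, and 8 of 12 metalloproteinases and 5 of 12 activation genes fell. The block raised calls for all genes as well, to 33.7% in either direction and 26.9% lower, so these gains are no result about the lists. The part of any of these cell types in a member's zone difference was not tested.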

How the data were processed

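The authors' deposited table holds FPKM-like values per gene, labelled TMM, for 12 libraries, and the submitters name Bowtie 0.12.2 and mm9. All 12 value columns match a sample, 0 do not. Members and gene lists were chosen with earlier results of these data known. Genes with at least 1 FPKM in 3 compared libraries were fitted as log2(FPKM + 1) with limma 3.58.1 (R 4.3.3), p adjusted by Benjamini-Hochberg, and members were also tested by exact permutation. The scripts were tested on simulated data. Same-number libraries correlated, after each gene's group mean was removed, at 0.65, 0.78 and 0.69 (DZ genotype) and 0.42, 0.78 and 0.65 (zone in R3-cKO) over 11359 genes. Other genes are named where a list or a likeness ranking holds them. Lists were metalloproteinases, inhibitors, activation and plasminogen, clearance, matrix substrates, transcription factors, and markers of chondrocyte, superficial zone, hypertrophic, osteoblast, fibroblast and tendon, macrophage, osteoclast, neutrophil, endothelial, skeletal muscle and Y-linked expression. Python 3.11.15, pandas 2.3.3, NumPy 2.4.6, SciPy 1.17.1 and matplotlib 3.10.9 made tables and figures.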

Additional observations from a re-analysis of the deposited data

How the results depend on the processing

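The limma fits were repeated with the filter removed or raised to a mean of 10 FPKM, with a smaller or larger pseudocount, under other scalings (quantile, median-of-ratios), in a model of all 12 libraries (comparisons within a zone or genotype), with a replicate block, and without each library in turn, and the ratios without *Mmp13*, *Timp3* or a library. Correlations and permutation tests were not repeated. Genotype and zone-difference counts were 0 in every setting. Genes past adjusted p 0.05 in limma for zone in R3-Cntl, 140 as reported, were 0 without a filter, 8 at a mean of 10, 88 and 29 at pseudocounts 0.1 and 5, 1 with quantile normalization, 17 with median-of-ratios and 798 in the 12-library model. For zone in R3-cKO, 2 as reported, they were 7, 0, 1 and 1 in the first 4 of these and 165 in the 12-library model. For zone over both genotypes 2725 became 1162 at a mean of 10. Signs reversed near 0: *Mmp16* genotype in SFZ 0.021 (quantile) and zone in R3-cKO 0.11 (quantile) and 0.071 (median-of-ratios), *Timp3* zone in R3-Cntl 0.035 and *Timp1* zone over both genotypes 0.0091 (median-of-ratios), and *Mmp13* zone over both genotypes 0.013 (pseudocount 5), 0.051 (quantile) and 0.16 (median-of-ratios). Protease to inhibitor means without *Timp3* were 0.489, 0.535, 0.849 and 0.365 (R3-Cntl SFZ, R3-cKO SFZ, R3-Cntl DZ, R3-cKO DZ), and without *Mmp13* R3-Cntl SFZ was 0.148.

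A block on replicate number gave 831 genes for zone in R3-Cntl and 352 for zone in R3-cKO. Pairing was not met for genotype in SFZ (0.79, −0.09, −0.42) or zone in R3-Cntl (0.58, 0.11, −0.15). Among member calls the block changed only *Timp2* for zone in R3-Cntl and *Mmp2* for zone over both genotypes, and the 12-library model also called *Timp2* for zone in R3-Cntl. The cause was not tested.

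Leaving out single libraries gave 0 to 505 genes for zone in R3-Cntl, 0 to 5 for zone in R3-cKO and 1624 to 2899 over both genotypes. Members whose sign reversed ranged as follows. Genotype in SFZ: *Mmp2* −0.076 to 0.88, *Mmp16* −0.070 to 0.048, *Timp1* −1.15 to 0.055, *Timp2* −0.11 to 0.35. Genotype in DZ: *Mmp2* −0.16 to 0.49, *Mmp14* −0.10 to 0.81. Zone in R3-Cntl: *Mmp13* −0.51 to 1.05, *Mmp16* −0.033 to 0.16, *Timp1* −1.16 to 0.047, *Timp3* −0.33 to 0.050. Zone in R3-cKO: *Mmp13* −0.66 to 0.18, *Mmp16* −0.13 to 0.013. Zone over both genotypes: *Mmp13* −0.37 to 0.32, *Mmp16* −0.039 to 0.052, *Timp1* −0.33 to 0.21. Zone difference: *Mmp2* −0.80 to 0.15, *Mmp13* −1.31 to 0.25, *Mmp14* −0.61 to 0.34. *Mmp13* for genotype in DZ kept its sign, −2.47 to −0.91. *Timp1* zone difference ranged 0.29 to 1.501. Ratios ranged 0.198 to 0.261, 0.194 to 0.312, 0.161 to 0.333 and 0.093 to 0.145 in the group order above.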

Other observations

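Inhibitors outside the named genes were mixed in level. *Reck*, a membrane-anchored MMP inhibitor, held between 29.5 and 94.8 FPKM in every library, while *Timp4* never passed 0.21 FPKM.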
